A study of Mus musculus with 4 samples.

Results

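Molecular chaperones are the proteins that fold, refold and sort other proteins, and 72 genes of the heat shock protein and DnaJ families were described here on 4 mouse brain arrays. Members were all genes whose symbol begins Hspa, Hspb, Hspd, Hspe, Hsph, Hsp90, Dnaja, Dnajb or Dnajc in the array's annotation, counted on rows that carry exactly 1 gene symbol, with the row of the highest mean standing for a gene that has several. They were 72 of 19938 such genes, on 95 of 21789 rows. Hsp90ab1 and Hspa1b have no row of their own by this rule and were not analysed here. Levels of different rows cannot be compared on an array, so every comparison is made for one row across the arrays.

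ICR mice, 1 month old at the start, received ketamine at 30 mg/kg, a dose below that used for anaesthesia, or saline, by daily intraperitoneal injection for 3 months. Ketamine blocks the NMDA type of glutamate receptor. RNA from tissue labelled prefrontal cortex was hybridised to Affymetrix gene arrays, 2 for each group. The labels call the mice female and the methods call them male. For each array the title states one treatment and the source field the other, so the groups are called here by their titles, and every difference is the mean of the ketamine-titled arrays minus the mean of the saline-titled arrays in log2 units. By the source field each direction would be the reverse. No label says that the arrays of a group came from separate animals, so that a p-value here reflects nothing beyond the spread among these 4 samples, which may be technical. With 2 arrays against 2, an exact two-sided permutation test cannot go below p = 0.333, and limma, which pools the spread over all rows, was used instead.

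Markers of the labelled tissue were not present alike in both groups. All 10 markers of cerebellar granule cells were higher on the ketamine-titled arrays (mean level 6.30 and 5.62 on the saline-titled arrays, 9.80 and 9.63 on the ketamine-titled arrays), as were 6 of 7 Purkinje cell markers. Of 8 markers of forebrain neurons 7 were lower (mean level 8.85 and 8.92 against 5.26 and 5.28), and Tbr1 and Neurod6 were within the range of olfactory receptor rows on both ketamine-titled arrays. Microglial markers were lower in 8 of 9 cases (median difference -0.80), choroid plexus markers higher in 6 of 7, none of 9 oligodendrocyte or 8 endothelial markers passed the test, 3 of 9 astrocyte markers were higher (S100b by 1.40, Aqp4 by 1.26 and Slc1a3 by 0.91) and 1 lower (Slc1a2, -0.64), and of 10 immediate early genes 7 were lower and 1 higher. Each chaperone difference below was measured on these same arrays, so that treatment and tissue composition cannot be told apart, nor, in bulk tissue, fewer cells of a type from less RNA per cell.

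As background, Hsp70 proteins bind unfolded stretches and release them in a cycle driven by ATP. DnaJ proteins deliver the client and start the hydrolysis of ATP, and nucleotide exchange factors, the Hsp110 proteins among them, reset the cycle. Small heat shock proteins hold unfolding proteins without using ATP, Hsp90 matures kinases and steroid receptors, and chaperonins enclose a client in a chamber. Heat and proteotoxic stress raise many of these genes through heat shock factor 1, which binds repeats of nGAAn in alternating orientation, and unfolded proteins in the endoplasmic reticulum raise others through the ER stress element.

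Promoter sequence is shown for some of the members that hold the letters of these elements. RefSeq windows of 250 bases before to 50 bases after a start (GRCm38.p6) were at hand for 59 of the 72 genes. Hspa8, Hsp90aa1 and Hspa9 were among those without a window. The heat shock element was searched as 2 units, GAANNTTC or TTCNNGAA, which are their own reverse complements, and as 3 units, the same with one more alternating unit after 2 bases, so that every match of 3 units holds matches of 2. In the sequences below, which run 5′ to 3′ and end at the base before the start, capitals mark matches of 2 units. Hspd1 is shown as 30 bases only, from 150 bases before one of its starts.
Hsph1, chr5:149636337-149636486, minus strand: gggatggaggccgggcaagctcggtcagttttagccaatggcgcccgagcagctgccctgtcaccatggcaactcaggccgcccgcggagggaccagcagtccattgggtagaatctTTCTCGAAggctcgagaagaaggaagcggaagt
Hspb1, chr5:135887769-135887918, plus strand: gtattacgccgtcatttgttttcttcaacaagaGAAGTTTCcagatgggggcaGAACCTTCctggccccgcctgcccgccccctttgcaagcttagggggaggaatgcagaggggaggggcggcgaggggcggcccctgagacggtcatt
Hspa1a, chr17:34972157-34972306, minus strand: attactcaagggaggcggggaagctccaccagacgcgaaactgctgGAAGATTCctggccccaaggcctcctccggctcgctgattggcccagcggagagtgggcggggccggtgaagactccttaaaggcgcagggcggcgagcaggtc
Dnajb6, chr5:29735748-29735897, plus strand: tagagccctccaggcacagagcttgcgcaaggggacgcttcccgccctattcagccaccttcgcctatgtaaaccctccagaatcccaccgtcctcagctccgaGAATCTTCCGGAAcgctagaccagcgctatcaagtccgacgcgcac
Hspd1, chr1:55088053-55088082, minus strand: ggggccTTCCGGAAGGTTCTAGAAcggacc

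The ER stress element was searched on both strands as CCAAT, any 9 bases and CCACG, and its outer letters are in capitals in the sequences of the members that hold it, each 150 bases long and ending at the base before the start. In Hsp90b1 the element marked lies on the opposite strand and reads in reverse.
Hspa5, chr2:34771940-34772089, plus strand: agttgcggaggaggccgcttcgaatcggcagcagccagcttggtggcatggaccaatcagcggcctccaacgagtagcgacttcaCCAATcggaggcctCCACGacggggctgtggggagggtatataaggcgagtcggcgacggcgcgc
Hsp90b1, chr10:86705445-86705594, minus strand: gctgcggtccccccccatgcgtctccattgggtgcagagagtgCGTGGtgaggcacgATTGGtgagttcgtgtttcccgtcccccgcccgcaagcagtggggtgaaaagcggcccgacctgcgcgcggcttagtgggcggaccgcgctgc
Dnajc3, chr14:118937782-118937931, plus strand: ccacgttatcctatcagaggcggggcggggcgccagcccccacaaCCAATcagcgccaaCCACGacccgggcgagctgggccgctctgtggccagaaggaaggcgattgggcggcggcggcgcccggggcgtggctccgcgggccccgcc

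Heat shock elements of 3 units were found in the windows of 4 of 59 members (6.78%, against 0.662% of 27025 genes with a window): Hspd1, Hspe1, Dnajb6 and Hsph1, the last inside the first 50 transcribed bases. Hspd1 and Hspe1 are divergent neighbours on chromosome 1, and the element shown is the same stretch for both. Of the 4, Hsph1 was lower and the others were not called. The 2-unit form was in 15 of 59 members (25.4%, against 17% of all genes), that is in 3 of the 12 called higher, 1 of the 4 called lower and 11 of the 43 not called. ER stress elements were in 3 of 59 members (5.08%, against 0.137% of all genes), none of which was called. The window of Dnajb1, a gene known to rise with heat, held no match to any of these forms. A match is a description of the letters and not a site shown to be used, and the absence of one says only that these letters are not in the window.

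Across the family, 18 of the 72 genes (25.0%) differed between the groups at an adjusted p below 0.05 in limma, 13 higher (18.1%) and 5 lower (6.94%) on the ketamine-titled arrays, and 54 did not pass. Over all rows tested the shares were 33.2%, 23.4% and 9.71%. Past 1.3-fold lay 15 members above and 5 below, beside 24.3% and 9.87% of all rows, and no member reached 2-fold. The groups did not overlap for 41 of 72 members (56.9%, beside 69.9% of all rows). The median difference of the members was 0.06, with a range from -0.69 to 0.82, and the median size of a difference was 0.17 against 0.26 over all rows. Between the arrays of one group the members differed by a median of 0.119 (saline-titled) and 0.0784 (ketamine-titled), and by at most 0.621.

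The median difference of all rows was 0.13, so that the split of higher and lower calls depends on the scaling between arrays. With each array centred on its median, 9 members were higher and 9 lower, beside 14.7% of all rows in each direction, and with quantile normalization 9 were higher and 11 lower, beside 13.4% and 18.6% of all rows. The calls of Hspb1, Hspb6, Dnajb2 and Dnajb3 were lost under both scalings, and those of the other 14 were kept. All 18 kept their direction under every alternative in which they were tested. The calls also depended on single arrays. Leaving out 1 array leaves 1 array in its group, and without either ketamine-titled array limma called no row, of a member or of any other gene.

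**Figure D1:**
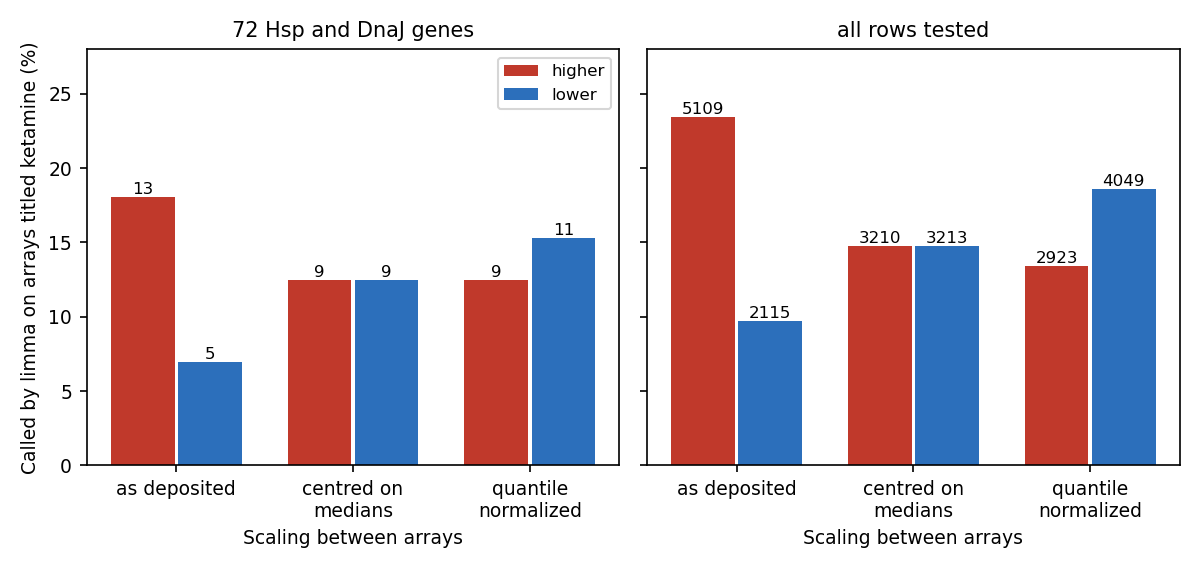
Share of genes called by limma (adjusted p below 0.05) as higher (red) or lower (blue) on the ketamine-titled arrays under 3 scalings, in percent, for the 72 members (left) and for all 21789 rows tested (right). The number called stands above each bar: 13 and 5 members with the values as deposited, 9 and 9 after centring, 9 and 11 after quantile normalization.

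**Figure D2:**
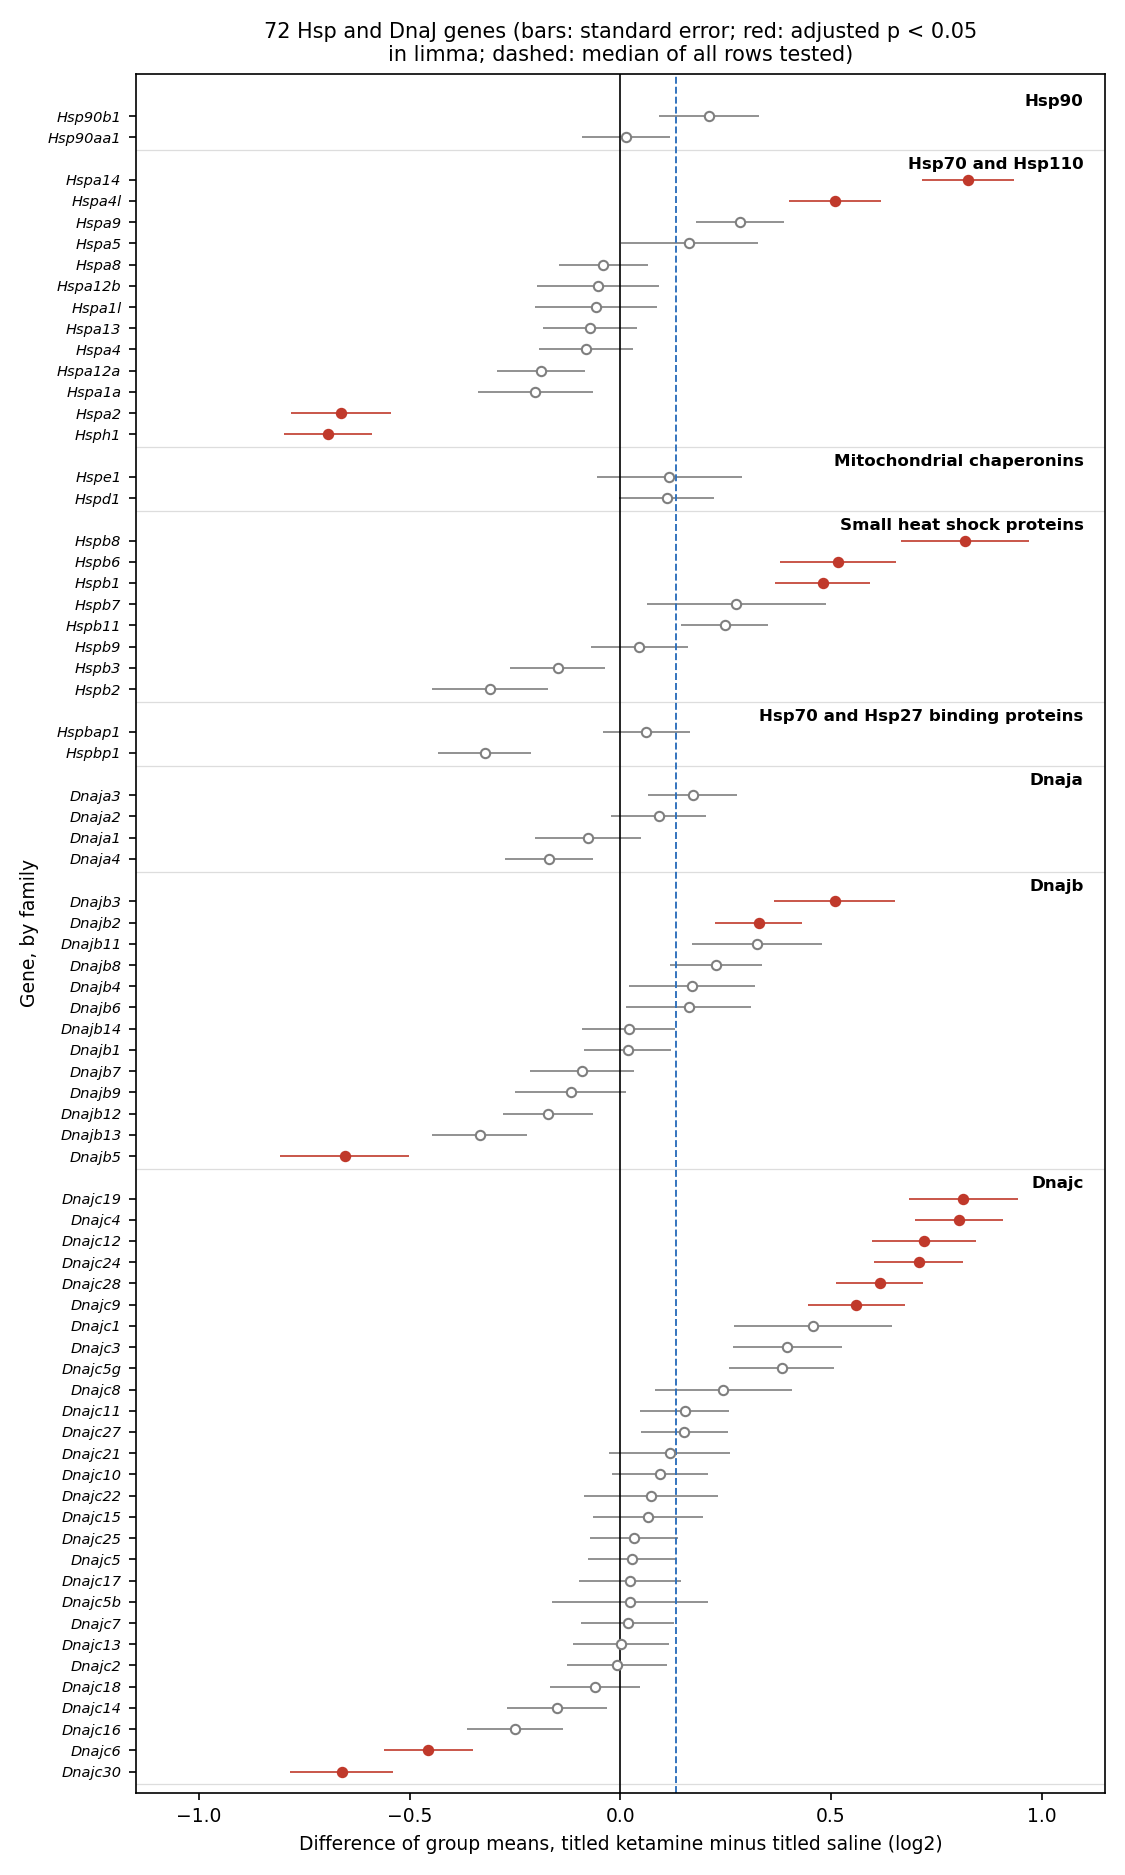
Difference of group means in log2 units for each of the 72 genes, grouped by family and ordered within it, with the standard error from limma. Filled red points passed an adjusted p of 0.05, and the dashed line marks the median of all rows tested, 0.13. With the values as deposited, calls lie on both sides in Hsp70 with Hsp110, in Dnajb and in Dnajc. They lie only above 0 (3 of 8 genes) in the small heat shock proteins, a family taken by symbol.

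Among the main cytosolic chaperones Hspa8, Hsp90aa1 and Dnajb1 were close to level, while Hsph1 was called lower and Hspb1 higher (below). Hspa8, the constitutive Hsp70 that also strips clathrin from vesicles, read 12.16 and 12.07 on the saline-titled arrays and 12.10 and 12.06 on the ketamine-titled arrays. Hsp90aa1, the inducible cytosolic Hsp90, read 11.998 and 11.983 against 11.985 and 12.023, and Dnajb1, the DnaJ partner of Hsp70 that rises with heat, 7.64 and 7.62 against 7.64 and 7.65. In all of these rows the arrays of the groups overlapped, with differences of -0.04, 0.01 and 0.02 (SE 0.106, 0.104 and 0.103). Further rows of Hsp90aa1 differed by 0.04 and 0.06 without overlap and were not called. Those of Hspa8 differed by -0.06 and 0.00 with overlap.

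Hspa1a, the strictly inducible Hsp70, was not called either. It read 6.17 and 5.99 against 5.74 and 6.02, a difference of -0.20 ± 0.137 (here and below ± the standard error from limma), and a further row shared by Hspa1a and Hspa1b differed by -0.11. Hspd1 and Hspe1, the Hsp60 and Hsp10 of the mitochondrial chaperonin whose promoters face each other, differed by 0.11 and 0.12, and their second rows by 0.18 and -0.03. For Hspe1 the ketamine-titled arrays lay apart from each other, at 9.36 and 9.88, with the saline-titled arrays between them. Hsf1, the gene of heat shock factor 1, had no row with its symbol alone and was not analysed here. Of the rest of the heat shock factor list, 4 genes had a row. None was called with the values as deposited, beside 33.2% of all rows. Hsbp1, which binds heat shock factor 1 and restrains it, differed by -0.33 (adjusted p = 0.0504, and 0.0144 after centring), and Hsf4, a factor known from the lens, by -0.21. Hsf2 differed by 0.04, and Hsf5 was within the range of olfactory receptor rows on all arrays.

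Within Hsp70 and Hsp110, 2 of 13 genes were higher and 2 lower (15.4% each, beside 23.4% and 9.71% of all rows). The median difference of this family was -0.06, or -0.19 after centring. Hsph1, the Hsp105 exchange factor that is among the genes most raised by heat, read 10.47 and 10.42 on the saline-titled arrays and 9.78 and 9.73 on the ketamine-titled arrays. Both ketamine-titled arrays were lower, the difference was -0.69 ± 0.105, and the adjusted p was 0.00296. Hspa4l, the Hsp110 relative also called Apg-1, went the other way, from 9.56 and 9.44 to 10.05 and 9.97 (0.51 ± 0.110, adjusted p = 0.0121). Hspa4, the third cytosolic member of that group, differed by -0.08 and overlapped. Hyou1, the Hsp110 of the endoplasmic reticulum and no member by symbol, was lower by the same test, at 8.65 and 8.54 against 8.17 and 7.86 (-0.58 ± 0.135, adjusted p = 0.0164). Calls in this group of exchange factors thus lay on both sides of 0, whichever scaling was used.

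Among the Hsp70 proteins proper, Hspa2 and Hspa14 were called. Hspa2, best known from spermatogenesis and also present in brain, read 6.85 and 6.63 against 6.10 and 6.05 (-0.66 ± 0.120, adjusted p = 0.00612). Hspa14, an Hsp70 relative that forms a ribosome-associated complex with the DnaJ protein Dnajc2, read 6.81 and 6.83 against 7.71 and 7.58 (0.82 ± 0.109, adjusted p = 0.00171), with Hspb8 the largest difference of any member. Dnajc2 itself differed by -0.01 and its groups overlapped. The remaining Hsp70 genes, from Hspa1a at -0.20 to Hspa9 at 0.28, were not called.

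Small heat shock proteins, taken here as symbols of Hspb and a number, had 3 of 8 members higher (37.5%, beside 23.4% of all rows). None was lower, beside 9.71% of all rows. Hspb8, which works with Bag3 to route misfolded proteins to autophagy, read 6.69 and 6.42 on the saline-titled arrays and 7.21 and 7.54 on the ketamine-titled arrays (0.82 ± 0.152, adjusted p = 0.00674). Its partner Bag3 read 6.07 and 5.91 against 6.65 and 6.70 (0.68 ± 0.112, adjusted p = 0.00424). Both genes were higher on both ketamine-titled arrays and were called after centring as well, at adjusted p = 0.00908 and 0.00864.

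Hspb1, known as Hsp27 in humans, and Hspb6, called Hsp20, were called higher with the values as deposited but neither after centring nor after quantile normalization. Hspb1 read 5.56 and 5.46 against 5.92 and 6.07 (0.48 ± 0.113, adjusted p = 0.0173, and 0.0582 after centring), and its second row differed by 0.58. Hspb6 read 5.91 and 6.18 against 6.45 and 6.67 (0.52 ± 0.139, adjusted p = 0.0273, and 0.0652 after centring). Hspb2, a small heat shock protein of muscle, lay below 0 at -0.31 (-0.14 without saline-titled array 2) and was called lower after centring (adjusted p = 0.036), so that the family's calls were then 1 higher and 1 lower, and 1 higher and 2 lower after quantile normalization. Of 4 smooth muscle markers on the same arrays Myh11 was lower (-0.36), and Acta2, Tagln and Myl9 differed by -0.25, 0.41 and 0.19 without passing. The 8 markers of endothelium and pericytes were all above 0 without passing (median 0.32), and the part of either cell type in the values of the small heat shock proteins was not tested. Cryab, an alpha-crystallin of the same superfamily with a symbol outside the rule, differed by 0.15 with overlapping groups, and Cryaa by 0.05.

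**Figure D3:**
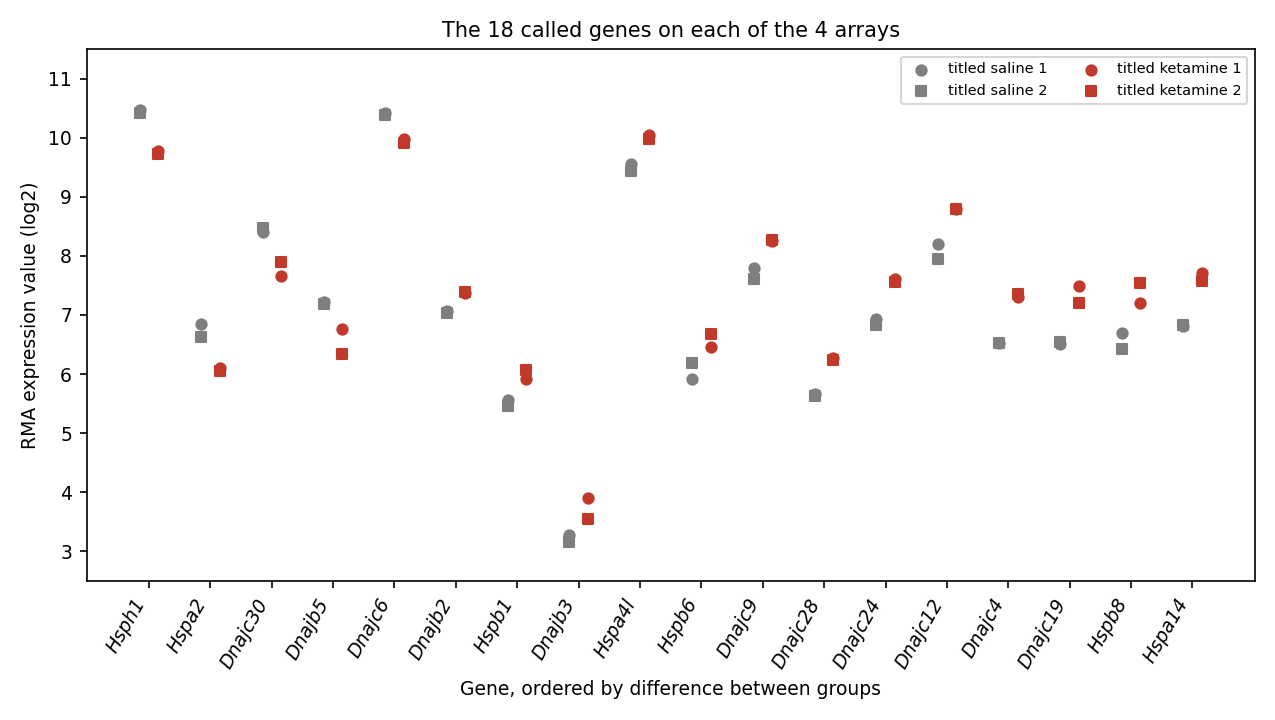
Log2 RMA expression values of the 18 called genes on each of the 4 arrays, saline-titled in grey and ketamine-titled in red, with circles for array 1 and squares for array 2, ordered by the difference from Hsph1 (-0.69) to Hspa14 (0.82). For every gene both ketamine-titled values lie on the same side of both saline-titled values. The genes were chosen by the call on these same values, and the groups did not overlap for 69.9% of all rows. Heights of different genes are not comparable.

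Neither Hsp90 gene was called. Of 13 Hsp90 co-chaperones 3 were (23.1%, beside 33.2% of all rows). Fkbp5 and Fkbp4, the immunophilins FKBP51 and FKBP52 that compete for Hsp90 on steroid receptors and act on the glucocorticoid receptor in opposite ways, lay on opposite sides. Fkbp5 read 7.34 and 7.34 against 5.93 and 6.25 (-1.25 ± 0.133, adjusted p = 0.000693). Fkbp4 read 8.36 and 8.32 against 9.22 and 9.07 (0.80 ± 0.112, adjusted p = 0.00214). Cdc37l1, a relative of the kinase co-chaperone Cdc37, was higher by 0.69, and all of these calls held under both scalings.

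DnaJ genes of the A class, the closest to the bacterial protein, had no call among 4, beside 33.2% of all rows. Their differences ran from -0.17 for Dnaja4 to 0.17 for Dnaja3, the mitochondrial member. The B class had 3 calls among 13 (23.1%, beside 33.2% of all rows). Dnajb5, which joins a redox-sensitive complex that moves histone deacetylase 4, read 7.22 and 7.19 on the saline-titled arrays against 6.76 and 6.34 on the ketamine-titled arrays (-0.65 ± 0.153, adjusted p = 0.0166). The ketamine-titled arrays were apart from each other by 0.42, but both lay below the saline-titled arrays.

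Dnajb2, a neuronal co-chaperone that hands ubiquitinated clients to the proteasome, read 7.06 and 7.03 against 7.37 and 7.38 (0.33 ± 0.103, adjusted p = 0.0469, and 0.227 after centring). Dnajb3 was called higher (0.51, adjusted p = 0.0325, and 0.33 without ketamine-titled array 1), but it is a testis gene whose 4 values, from 3.16 to 3.90, were within the range of olfactory receptor rows. Dnajb6, a suppressor of polyglutamine aggregation, had a row of its own at 4.20 to 4.60, with overlapping groups, while 4 brighter rows that it shares with a predicted gene differed by 0.12 to 0.15. Dnajb11, the DnaJ partner of Hspa5 in the endoplasmic reticulum, and Dnajb13, of sperm flagella and cilia, differed by 0.32 (0.12 without saline-titled array 2) and -0.33 and were not called with the values as deposited. Dnajb13 was called lower after centring (adjusted p = 0.0157), but both of its ketamine-titled values, 4.27 and 4.29, were within the range of olfactory receptor rows.

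The C class, whose members share little beyond the J domain and have particular duties, had 8 of its 28 genes called (28.6%, beside 33.2% of all rows), 6 higher and 2 lower, and these 8 were called after centring and after quantile normalization too, when Dnajc16 was called lower in addition. Dnajc19, a J protein of the motor that pulls proteins into the mitochondrial matrix, read 6.50 and 6.55 against 7.48 and 7.20 (0.81 ± 0.129, adjusted p = 0.00361). Grpel2, one of the mitochondrial exchange factors, read 6.98 and 6.95 against 7.80 and 7.71 (0.80 ± 0.106, adjusted p = 0.00175). Hspa9, the Hsp70 that both serve, read 10.42 and 10.38 against 10.71 and 10.66. Its difference of 0.28 ± 0.104 did not pass (adjusted p = 0.0768). Hspa9 did pass with trend and robust moderation or with rows under the median level left out. After centring and after quantile normalization it did not (adjusted p = 0.359 and 0.171). Grpel1, the other exchange factor, differed by 0.19. The groups did not overlap for any of these 4 genes, as for 69.9% of all rows. Dnajc15, another J protein of the same motor, read 8.06 and 7.89 against 7.91 and 8.17, with overlapping groups and a difference of 0.07.

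Further C-class genes were higher on both ketamine-titled arrays. Dnajc4, a little-studied membrane-associated member, read 6.53 and 6.53 against 7.30 and 7.36 (0.80 ± 0.104, adjusted p = 0.00157). Dnajc12, a co-chaperone of the aromatic amino acid hydroxylases that begin dopamine and serotonin synthesis, read 8.20 and 7.94 against 8.80 and 8.79 (0.72 ± 0.124, adjusted p = 0.0050). Dnajc24, which is needed to make diphthamide on elongation factor 2, read 6.92 and 6.83 against 7.61 and 7.57 (0.71 ± 0.107, adjusted p = 0.00294). Dnajc28, of uncertain function, and Dnajc9, a histone co-chaperone, were higher by 0.62 and 0.56 (adjusted p = 0.00468 and 0.0101).

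The 2 lower genes of the class were Dnajc30 and Dnajc6. Dnajc30, a mitochondrial protein of neurons that takes part in complex I upkeep, read 8.41 and 8.48 against 7.67 and 7.90 (-0.66 ± 0.122, adjusted p = 0.00661). Dnajc6, the neuronal auxilin that recruits Hspa8 to remove clathrin coats from synaptic vesicles, read 10.43 and 10.38 against 9.98 and 9.92 (-0.46 ± 0.105, adjusted p = 0.0158). None of 8 listed genes of clathrin and synaptic membrane traffic was called, beside 33.2% of all rows. Gak, the widely expressed auxilin, differed by -0.04, Cltb, a clathrin light chain, by 0.30 and Snap25, a fusion protein of the presynaptic membrane, by 0.26. Dnajc5, the cysteine string protein of synaptic vesicles, read 9.53 and 9.59 against 9.58 and 9.60, with overlapping groups and a difference of 0.03. Forebrain neuron markers were lower on the same arrays (median difference -3.65), and their part in the values of Dnajc6 and Dnajc30 was not tested.

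The 20 C-class genes that were not called ranged from -0.25 for Dnajc16, a membrane protein of the endoplasmic reticulum, to 0.46 for Dnajc1, another membrane protein of that compartment. Dnajc1 read 6.67 and 6.08 against 6.87 and 6.79, so that the difference was 0.16 without saline-titled array 2 and 0.75 without array 1. Dnajc7, a co-chaperone that links Hsp70 with Hsp90, Dnajc13, of endosomal traffic, and Dnajc27, a small GTPase with a J domain, differed by 0.02, 0.00 and 0.15. The 15 rows of Dnajc13 ran from -0.08 to 0.34, and none was called. Dnajc5b and Dnajc5g, the testis relatives of cysteine string protein, were within the range of olfactory receptor rows on all arrays. The largest difference between arrays of one group was that of Hspb7, a heart and muscle gene in the same dim range, at 3.52 and 4.14 on the saline-titled arrays.

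**Figure D4:**
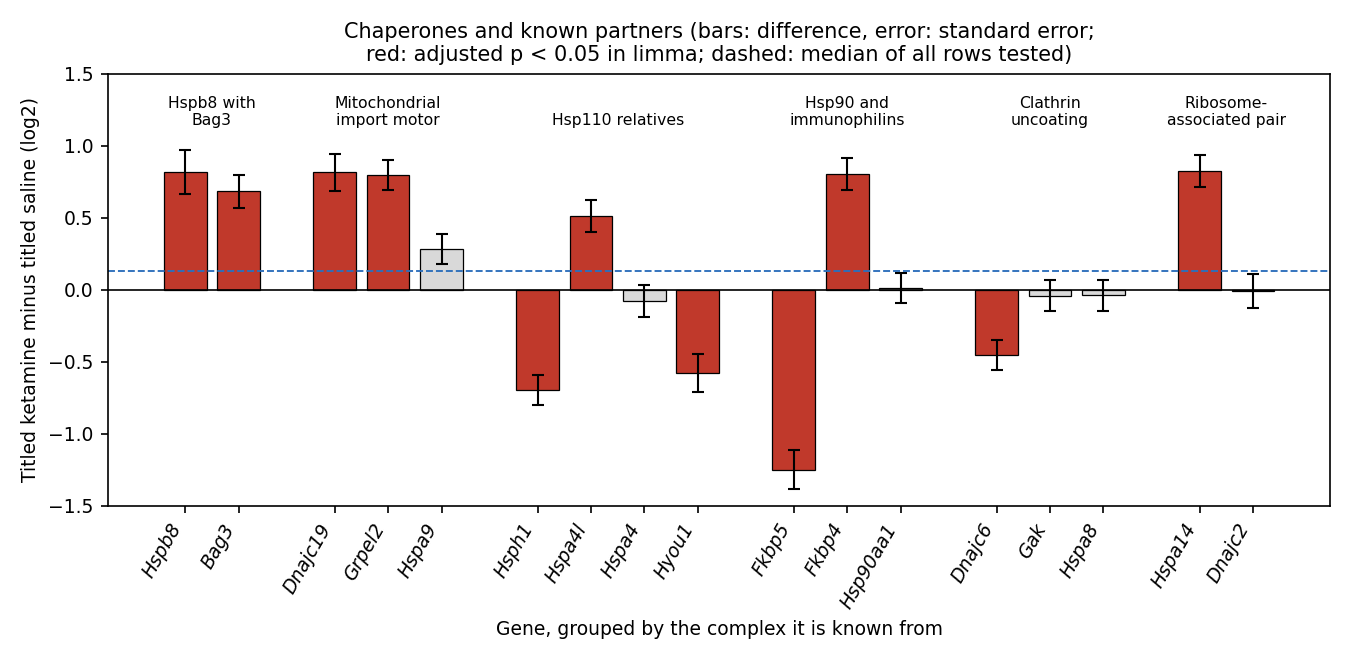
Difference of group means in log2 units for chaperones and the partners they are known to work with. Bars are differences, error bars standard errors from limma, red bars passed an adjusted p of 0.05, grey bars did not, and the dashed line is the median of all rows, 0.13. Hspb8 and Bag3, and Dnajc19 and Grpel2, lie above 0 together, while the Hsp110 relatives and the immunophilins Fkbp5 (-1.25) and Fkbp4 (0.80) lie on both sides. Grpel1 (0.19) and Dnajc15 (0.07), of the same mitochondrial motor as Dnajc19, are not drawn.

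The chaperones of the endoplasmic reticulum that hold the ER stress element did not pass the test with the values as deposited. Hspa5, the Hsp70 known as BiP, read 10.22 and 9.91 against 10.41 and 10.05 (0.16 ± 0.163, and -0.02 without ketamine-titled array 1), with overlapping groups. Hsp90b1, the Hsp90 known as GRP94, read 10.91 and 10.75 against 11.11 and 10.97 (0.21 ± 0.119, adjusted p = 0.212), and Dnajc3, an inhibitor of the kinases that phosphorylate eIF2 alpha, 8.93 and 8.65 against 9.23 and 9.14 (0.40 ± 0.129, adjusted p = 0.0528). Dnajc3 was called higher with trend and robust moderation, with rows under the median level left out and with the replicate number as a block. It was not called by limma after centring or after quantile normalization (adjusted p = 0.177 and 0.122). With each array left out in turn, its difference ran from 0.26 to 0.54. Of 16 further genes of this compartment and its stress response, 3 were higher (18.8%, beside 23.4% of all rows) and none lower (median 0.21). These were Eif2ak3, the kinase PERK, by 0.55 (adjusted p = 0.00916), Atf4, the factor translated after it, by 0.48 (adjusted p = 0.0227), and Ern1, the sensor IRE1, by 0.42 (adjusted p = 0.0219). Atf6, the third sensor, differed by -0.17, and Xbp1 and Ddit3, regulators of the same response, by 0.24 and 0.35, without passing. After centring only Eif2ak3 of the list was called.

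Other co-chaperones of Hsp70 gave 5 higher and 2 lower calls among 17 (29.4% and 11.8%, beside 23.4% and 9.71% of all rows), and 2 higher and 2 lower after centring. Their median difference was 0.13 (equal to that of all rows at this rounding). Besides Grpel2, Bag3 and Hyou1 these were Bag5, a nucleotide exchange factor known from neurons (0.40), Sil1, the exchange factor of Hspa5 (0.46), and Ttc1, a protein with the repeats that bind Hsp70 (0.43), whose calls were lost under both scalings, and Sgtb, the neuronal small glutamine-rich co-chaperone (-0.60, adjusted p = 0.00532), whose call was kept. Hspbp1, an exchange factor that inhibits Hsp70, differed by -0.32 (adjusted p = 0.0612) and was called lower after centring (0.0165), and Hspbap1, a protein that binds Hsp27, by 0.06. In the chaperonin TRiC with prefoldin, which fold actin and tubulin, 1 of 15 genes was called (6.67%, beside 33.2% of all rows). Vbp1, a prefoldin subunit, was higher by 0.83 (adjusted p = 0.017, and by 0.52 without saline-titled array 2), and Pfdn1 differed by 0.26.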

How the data were processed

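Per the labels and the methods, total RNA from 4 mouse brain samples was hybridised to Affymetrix gene arrays. The values are log2 expression deposited by the authors after RMA in Affymetrix Expression Console (version and genome build not given in the sources used here). RMA equalises the distributions of probe values between arrays, so a real shift of most genes would be partly removed. Rows were named from the platform annotation, and all 72 genes matched RefSeq by gene number. Scanner files were not used here.

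Rows with exactly 1 symbol (21789) were fitted with limma 3.58.1 in R 4.3.3 (lmFit, eBayes) and adjusted by Benjamini-Hochberg over all of them. A row at or below the 95th percentile of 1023 olfactory receptor rows (4.20 to 4.56 on the arrays) was taken as dim, and 6 members were dim in both groups. Array medians were 5.90 to 6.04, and the number of arrays limits the precision. The fit was tested on simulated data. Members and lists were chosen with earlier results of these data known. Genes named were the 4 largest differences of each family and the 2 largest of each partner list among genes not dim in both groups, and a list of main chaperones; all others, such as Dnajb3, Dnajc9, Hyou1 or Ern1, were named after their values were seen. Scaling, the filter on dim rows, the moderation, the row standing for a gene and a block for the replicate number were varied, and every array was left out in turn.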

Additional observations from a re-analysis of the deposited data

Results flagged for a closer look

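A signal outside the comparisons appeared in 2 rows that the annotation assigns to Hspa8 together with the small nucleolar RNAs Snord14c and Snord14d, which lie in introns of that gene. Both rows carry the same values, 7.02 and 6.46 on the saline-titled arrays and 8.42 and 7.76 on the ketamine-titled arrays, a difference of 1.35 on the log2 scale with no overlap between groups. The row of Hspa8 alone differed by -0.04. With several symbols, these rows entered no test, and which transcript they read was not tested.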

How the results depend on the processing

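Of the 18 genes called, all those tested under an alternative kept their direction there. The count of members called was 20 (14 shared with the main 18) after quantile normalization and 18 (14 shared) after centring. It was 18 (15 shared) of 52 with rows under the median level left out. With trend and robust moderation it was 21 (18 shared), and 19 (18 shared) with the mean of all rows of a gene. Beside these, limma called 6972 of all 21789 rows after quantile normalization and 6423 after centring. It called 8130 with trend and robust moderation and 8250 with the replicate number as a block. With rows under the median level left out it called 5341 of 10895 rows. Leaving out one array gave 0 to 15 members and 0 to 4574 of all rows, against 7224; without ketamine-titled array 1 or 2 no row passed limma, while 5974 and 6461 had an unadjusted p below 0.05. In those fits the lone array is assumed to vary like the other group, and the cause of the loss was not tested. A threshold of 0.01 left 10 members, and a 2-fold limit 0 in place of 20 at 1.3-fold. Centring turned the medians of the Dnaja, Dnajb, Dnajc, Hsp90 and chaperonin families below 0 (-0.13, -0.12, -0.05, -0.02 and -0.02), and quantile normalization that of the small heat shock proteins (-0.02, against 0.26). The replicate number as a block gave 20 members (17 shared); over all rows the deviations of same-numbered arrays correlated at 0.034, and the numbers were not taken to pair the arrays, although in the endoplasmic reticulum list array 2 differed from array 1 by a median of -0.17 in the saline-titled and -0.16 in the ketamine-titled group. What limits these data is the number of arrays, the contradiction between titles and source field, tissue markers that differ between the groups and, for 9 members, signal within the range of olfactory receptor rows on at least 1 array.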
